A study of Mus musculus with 3 samples.

Results

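The 10 noncoding genes named below, each a carrier of small nucleolar RNAs (snoRNAs), were measured in RNA-seq libraries of mouse aortic endothelial cells. They were Gas5, Snhg1, Snhg3, Snhg5, Snhg6, Snhg8, Snhg12, Snhg15, Epb41l4aos and Zfas1, chosen by name as host genes known to respond to a block of translation. The choice was made with earlier results of these data known. Of these 10 genes, 9 were among the 18287 genes listed in the deposited tables, and Snhg3 was not listed in either. All 9 had higher normalized counts after glucose oxidase than in the control library. So did 48.9% of all listed genes and 65.9% of 258 long noncoding RNA genes with a mean normalized count of at least 100. In the library that was also given Et2HOBA, 5 of the 9 stood more than 2-fold above control. There 6.66% of all genes and 12.0% of those 258 rose by at least 1 log2 unit.

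The cells and their complete medium were bought from a supplier (Cell Biologics), and the labels give no strain, passage or number of cultures. Glucose oxidase makes hydrogen peroxide from glucose, and the labels give a dose of 5 mU/mL for 30 min. Et2HOBA (ethyl-2-hydroxybenzylamine) is a scavenger of isolevuglandins, reactive lipid aldehydes that form adducts on proteins. It was given at 0.2 mM for 24 h to cells that also received glucose oxidase. The 3 groups were a control, cells given glucose oxidase alone and cells given both agents, with 1 library of polyadenylated RNA each. The order of the exposures is not stated, and Et2HOBA alone was not analysed here.

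Counts of the control library and of the library given both agents are as deposited, and those after glucose oxidase alone were recovered as whole reads from deposited log2 differences. With 1 library per group no difference has a replicate check and no p-value is given. The intervals printed are exact 95% binomial intervals on read counts. They cover counting error only and compare these libraries, not the conditions. A gene was counted as past the limit when its log2 ratio of normalized counts, each with 10 added, was at least 1 in size. Both treated libraries are set against the same control library, so the ratios to control are not independent of each other.

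A snoRNA host gene is transcribed as a long RNA whose introns hold the snoRNAs. Most box C/D snoRNAs guide 2′-O-methylation of ribosomal RNA, and most box H/ACA snoRNAs guide its pseudouridylation. The spliced exons of several such hosts, Gas5 and Snhg1 among the best studied, hold short reading frames that ribosomes enter, and the spliced RNA is then degraded by nonsense-mediated decay (NMD). These RNAs are known to build up when translation is blocked. Many hosts also begin with a terminal oligopyrimidine (TOP) tract, the pyrimidine run found at the start of ribosomal protein mRNAs, whose translation follows growth signals through mTORC1.

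The sequence around the start site is shown for 7 of the listed hosts, since a TOP tract is a feature that some of these genes share with translation-machinery mRNAs. Each stretch runs 5′ to 3′ from 30 bases before the RefSeq start (GRCm38.p6), and capitals mark a tract, searched on the sense strand as a C followed by at least 4 C or T and beginning within 10 bases of the start. The first 4 hold such a tract and the last 3 do not.
Gas5, chr1:161035136-161035205, plus strand: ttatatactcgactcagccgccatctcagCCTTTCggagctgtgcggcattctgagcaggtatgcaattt
Snhg12, chr4:132308648-132308717, plus strand: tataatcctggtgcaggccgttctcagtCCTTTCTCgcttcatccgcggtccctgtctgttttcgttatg
Snhg8, chr3:123508297-123508366, minus strand: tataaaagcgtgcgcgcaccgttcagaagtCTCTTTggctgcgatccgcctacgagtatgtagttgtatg
Snhg5, chr9:88522858-88522927, minus strand: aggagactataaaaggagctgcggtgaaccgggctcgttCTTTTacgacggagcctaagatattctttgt
Snhg1, chr19:8723457-8723526, plus strand: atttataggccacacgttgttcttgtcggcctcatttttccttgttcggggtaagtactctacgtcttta
Snhg15, chr11:6528721-6528790, minus strand: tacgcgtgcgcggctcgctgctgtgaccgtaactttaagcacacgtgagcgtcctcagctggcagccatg
Zfas1, chr2:167062904-167062973, plus strand: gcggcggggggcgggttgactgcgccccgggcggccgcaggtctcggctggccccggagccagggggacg

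RefSeq start sequences were matched for 8 of the 10 hosts, and 5 of the 8 held the tract: Gas5 at 1 of its 2 starts, Snhg3, Snhg5, Snhg8 and Snhg12. The same search found it in 34.4% of all 27025 genes with a start sequence. A match describes the letters of this window and does not show that a transcript begins there. No match says only that these letters are not in this window.

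The snoRNAs inside the hosts are shown next because they are the stable products of these introns, and because 2 of them are themselves listed in the count table. Capitals mark the C box TGATGA and the D box CTGA of box C/D snoRNAs, or the ACA that stands 3 bases before the end of box H/ACA snoRNAs, both read on the transcribed strand of GENCODE M21.
Snord47 in Gas5, chr1:161038082-161038158: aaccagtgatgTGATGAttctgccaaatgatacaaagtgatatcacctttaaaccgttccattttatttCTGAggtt
Snord87 in Snhg6, chr1:9942463-9942549: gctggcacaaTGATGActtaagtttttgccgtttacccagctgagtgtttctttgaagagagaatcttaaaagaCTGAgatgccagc
Snord50a in Snhg5, chr9:88521529-88521600: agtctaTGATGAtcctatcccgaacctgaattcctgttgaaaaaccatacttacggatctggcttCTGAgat
Gm23201 in Zfas1, chr2:167064998-167065086: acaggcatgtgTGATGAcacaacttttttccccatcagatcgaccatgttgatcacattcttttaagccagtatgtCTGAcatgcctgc
Snora24 in Snhg8, chr3:123507937-123508066: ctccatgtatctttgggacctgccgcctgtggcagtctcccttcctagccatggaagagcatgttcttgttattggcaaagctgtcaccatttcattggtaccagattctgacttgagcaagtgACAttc

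The 10 hosts hold 34 annotated snoRNA genes at 32 distinct positions. Gas5 holds 9 positions, Snhg1 8, Snhg12 4 and Zfas1 3, Snhg3 and Snhg5 hold 2 each, and the other 4 hosts hold 1 each. A C box in the first 20 bases together with a D box in the last 15 was found in 20 of the 34 (58.8%), against 19.9% of all 1558 annotated snoRNAs. The ACA without that pair of boxes was found in 8 of the 34 (23.5%), against 19.1% of all. Every annotated snoRNA of Gas5, Snhg1, Snhg5, Snhg6 and Zfas1 holds the D box in its last 15 bases, though some lack these exact letters of the C box, and these genes are called box C/D hosts here. Those of Snhg3, Snhg8, Snhg15 and Epb41l4aos hold the ACA without the pair of boxes, and Snhg12 holds both kinds.

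**Figure D1:**
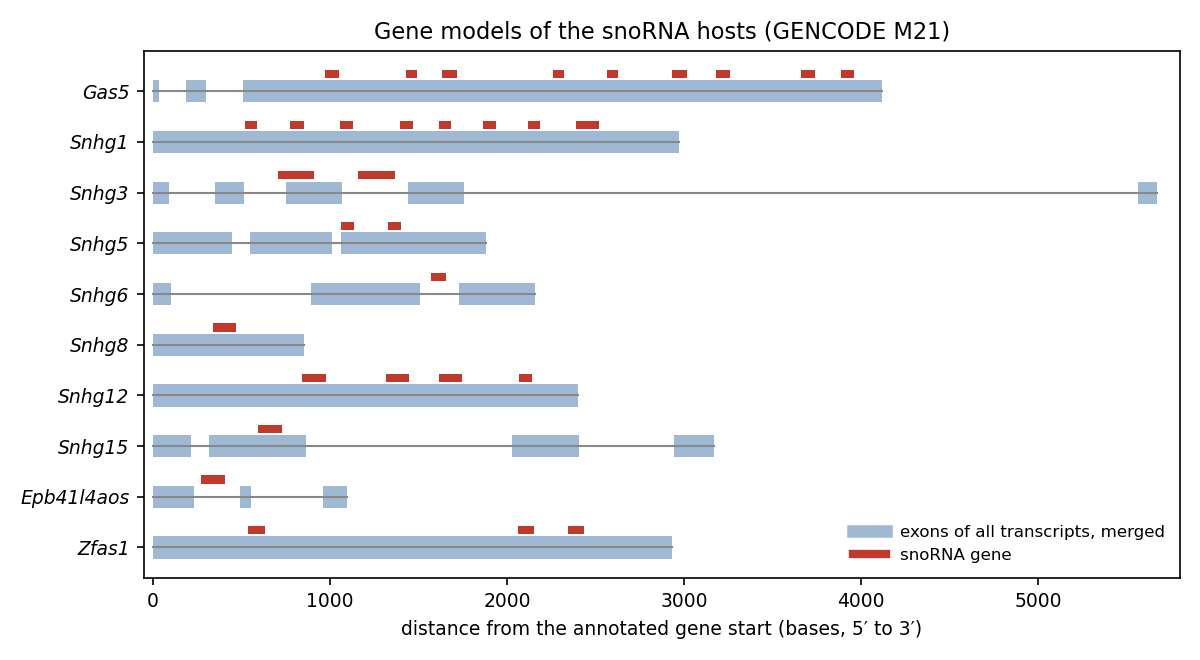
Gene models of the 10 hosts in GENCODE M21, drawn from the annotated start (x axis, distance in bases, 5′ to 3′). Blue blocks are the exons of all transcripts merged and red blocks are snoRNA genes, and 3 of the 34 snoRNAs have no exon of a host transcript over them.

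Reads in listed genes came to 35969965 for control, 35005089 for glucose oxidase and 40212212 for both agents. No gene is listed unless 1 of its libraries holds 5 or more reads. The 9 hosts together took 8116 of the control reads, 12456 of those after glucose oxidase and 16356 of those with Et2HOBA. Of 10 endothelial markers all were listed, and their summed normalized count was 329800 in control, then 221200 with glucose oxidase and 210500 once Et2HOBA was added. Single markers differed widely. After glucose oxidase 0 of the 10 lay above control, with log2 ratios from -1.14 to -0.09. With Et2HOBA 1 did, Cdh5 at 0.19, while Tek was lowest at -2.01. Markers of other cells also moved unevenly. Of 6 fibroblast markers 2 were listed, with a summed normalized count of 130.8, 1404 and 2738 in that library order, most of it Pdgfra, while Col1a2, Dcn, Dpt and Lum were not listed. Of 7 leukocyte markers 2 were listed, with sums of 8141, 17760 and 26850, most of it the lysosomal Cd68. The other, Lyz2, had 186, 76 and 86 reads, and Ptprc, the defining leukocyte gene, was not listed. Of 6 smooth muscle markers 5 were listed, with sums of 4859, 3717 and 3943, most of it Smtn, and Cnn1 was not listed. The others had few reads, at most those of Myh11 with 19, 35 and 73. Of the 5 listed, 4 lay above control after glucose oxidase and 3 with Et2HOBA. In bulk RNA, fewer cells of a type and less RNA per cell cannot be told apart, and the part of these markers in the host genes' differences was not tested.

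Among the box C/D hosts, Gas5 (growth arrest-specific 5, ENSMUSG00000053332.13, chr1:161034422-161038539) was the most abundant by reads. It had 2122 reads in the control library against 4676 with glucose oxidase and 5500 with both. Both treated libraries lay far above control and close to each other. The normalized level was 2.36-fold that of control after glucose oxidase (2.24 to 2.48) and 2.58-fold with Et2HOBA (2.45 to 2.71), which is past the limit in both comparisons. Between the treated libraries the ratio was 1.09 (1.05 to 1.14), and its interval held 1 with total-count scaling. The share of Gas5 in the hosts' reads was 26.1%, 37.5% and 33.6% in the same library order.

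Snhg6 (ENSMUSG00000098234.7, chr1:9941959-9944118) carries 1 snoRNA, Snord87. Its reads were 442 in the control library, 837 after glucose oxidase alone and 1389 after both agents, a stepwise order in which the library with Et2HOBA was the highest. The level after glucose oxidase was 2.02-fold that of control (1.8 to 2.28), just at the limit, and its log2 ratio of 1.0 became 0.95 with total-count scaling and 0.79 in the authors' deposited table. With Et2HOBA it rose to 3.12-fold (2.8 to 3.48), the largest ratio to control of the 9 listed hosts. The library with Et2HOBA was 1.54-fold above glucose oxidase (1.41 to 1.68).

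Snhg5 (ENSMUSG00000097195.10), host of Snord50a and Snord50b, showed the same order of libraries. It had 339 reads in control, then 608 with glucose oxidase and 932 once Et2HOBA was added. The ratio to control was 1.92 after glucose oxidase (1.68 to 2.2), under the limit, and 2.73 with Et2HOBA (2.41 to 3.1), past it. The library with Et2HOBA was 1.42-fold above glucose oxidase (1.29 to 1.58).

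Snhg1 (ENSMUSG00000108414.1, chr19:8723475-8726443), the host of Snord22 and related box C/D snoRNAs, had 1017 reads in the control library against 1317 with glucose oxidase and 1842 with both. It did not reach the limit in either comparison, at 1.38-fold (1.27 to 1.5) and 1.8-fold (1.67 to 1.94) of control. Its closest neighbour is the amino acid transporter subunit gene Slc3a2, a stress-responsive gene that starts 106 bases away on the other strand. Slc3a2 had 7093, 25278 and 34241 reads in the same library order and rose by 1.93 and 2.26 on the log2 scale, against 0.47 and 0.84 for Snhg1.

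Zfas1 (ENSMUSG00000074578.14, chr2:167062934-167065862), named for its place opposite the start of Znfx1, had 1721 reads in the control library, 1884 after glucose oxidase alone and 2655 after both agents. The ratio to control was 1.17 after glucose oxidase (1.1 to 1.25) and 1.53 with Et2HOBA (1.44 to 1.63), under the limit in both. Most of the difference therefore lay between the treated libraries, whose ratio was 1.31 (1.23 to 1.39). Znfx1, an RNA helicase-like gene induced in antiviral responses, had lower counts where Zfas1 had higher ones, with 8420, 5334 and 4395 reads and log2 ratios to control of -0.56 and -0.95.

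Among the box H/ACA hosts, Epb41l4aos (ENSMUSG00000087590.2, chr18:33794892-33795986), a short gene named as antisense to Epb41l4a, had the largest ratio of the hosts between the treated libraries. It had 249 reads in control, then 364 with glucose oxidase and 744 once Et2HOBA was added. The ratio to control was 1.56 after glucose oxidase (1.33 to 1.84), under the limit, and 2.97 with Et2HOBA (2.57 to 3.44), past it. The library with Et2HOBA was 1.9-fold above glucose oxidase (1.67 to 2.16), and among 258 long noncoding RNA (lncRNA) genes with a mean normalized count of at least 100 only 1 had a higher ratio there. On the log2 scale this step was 0.91, but 0.39 on the scale fitted to the authors' deposited table of 7 genes. The authors' deposited differences from control were 0.42 after glucose oxidase and 1.35 with Et2HOBA. These values come from separately scaled tables and do not add up, so 0.39 cannot be set against 0.42.

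Snhg8 (ENSMUSG00000104960.1, chr3:123507552-123508404), host of Snora24, had 1388 reads in the control library against 1712 with glucose oxidase and 2051 with both. These are 1.32-fold (1.23 to 1.42) and 1.47-fold (1.37 to 1.57) of control, both under the limit. Snhg15 (ENSMUSG00000085156.8), host of Snora9, was the flattest of the hosts, with 626, 724 and 769 reads in that order. Its ratios to control were 1.24 (1.11 to 1.38) and 1.22 (1.1 to 1.36). The ratio between the treated libraries was 0.987, and its interval (0.891 to 1.09) holds 1, so no difference was detectable at this depth.

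Snhg12 (ENSMUSG00000086290.9, chr4:132308623-132311024), with snoRNAs of both kinds, was the least abundant host. It had 212 reads in the control library, 334 after glucose oxidase alone and 474 after both agents. The ratio to control was 1.68 after glucose oxidase (1.41 to 2.01), under the limit, and 2.22 with Et2HOBA (1.89 to 2.62), past it. The interval of the second ratio reaches below 2, and its log2 ratio of 1.11 became 0.97 with total-count scaling and 0.95 in the authors' deposited table. Snhg3, its neighbour on chromosome 4 and host of Snora73a and Snora73b, has no value in these tables. In GENCODE M21 it overlaps Rcc1 on the same strand over 5592 bases, and 72.0% of the 50-base stretches of its longest transcript occur in other annotated genes.

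**Figure D2:**
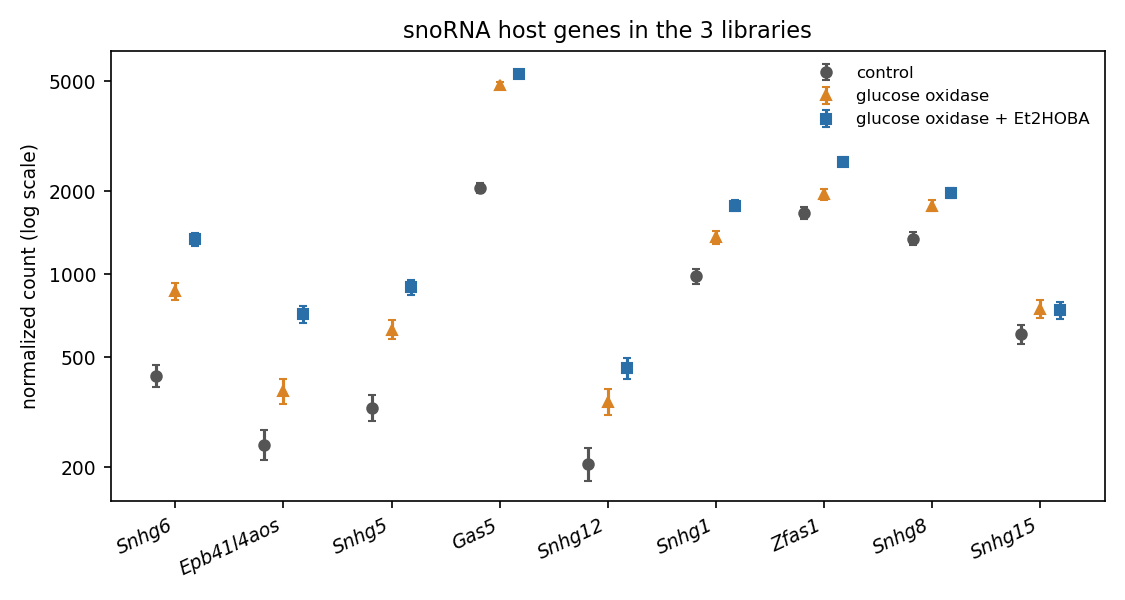
Normalized count (y axis, log scale) of the 9 listed hosts in the control library, after glucose oxidase, and after both agents, 1 library each, with bars for the exact 95% counting interval. The control library is the lowest for all 9 genes, and for 8 of the 9 the library with Et2HOBA is the highest, with Snhg15 the exception.

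Set side by side, all 9 listed hosts were above control in both treated libraries, by unequal amounts. After glucose oxidase 2 of 9 were past the limit upward (Gas5 and Snhg6) and 0 downward, beside 4.07% of all listed genes upward and 8.6% downward, and 11.2% and 1.55% of the 258 lncRNA genes. All 9 lay above 0, with a median log2 ratio of 0.62 (range 0.23 to 1.23), against a median of -0.01 over all genes and 0.2 over the lncRNA genes, of which 65.9% lay above 0. With Et2HOBA 5 of 9 were past the limit upward (Snhg6, Epb41l4aos, Snhg5, Gas5 and Snhg12) and 0 downward, beside 6.66% of all genes upward and 8.04% downward, and 12.0% and 6.59% of the lncRNA genes. Their median was 1.11 (range 0.28 to 1.62), while 49.6% of the lncRNA genes lay above 0. All 9 counting intervals lay above 1 in both comparisons, but with total-count scaling that of Snhg15 with Et2HOBA no longer did.

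Between the treated libraries 0 of 9 hosts were past the limit, beside 6.39% of all genes upward and 2.15% downward, and 0.388% and 3.1% of the lncRNA genes. The median of the hosts was 0.39 (range -0.02 to 0.91), and 8 of the 9 intervals lay above 1. With total-count scaling 6 of 9 did, since those of Gas5 and Snhg8 then held 1 as well as that of Snhg15. The lncRNA genes as a group ran the other way there, with a median of -0.19 and 30.2% above 0. Of the 9 hosts 6 were in the top 10% of the 258 lncRNA genes in this comparison, against 4 with Et2HOBA over control and 1 after glucose oxidase. Processed pseudogenes set the glucose oxidase library apart: 362 of them had a median of -1.22 for glucose oxidase over control, 0.28 with Et2HOBA over control and 1.49 between the treated libraries. With size factors taken from protein-coding genes alone the hosts' medians in the 3 comparisons were 0.59, 1.11 and 0.42.

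**Figure D3:**
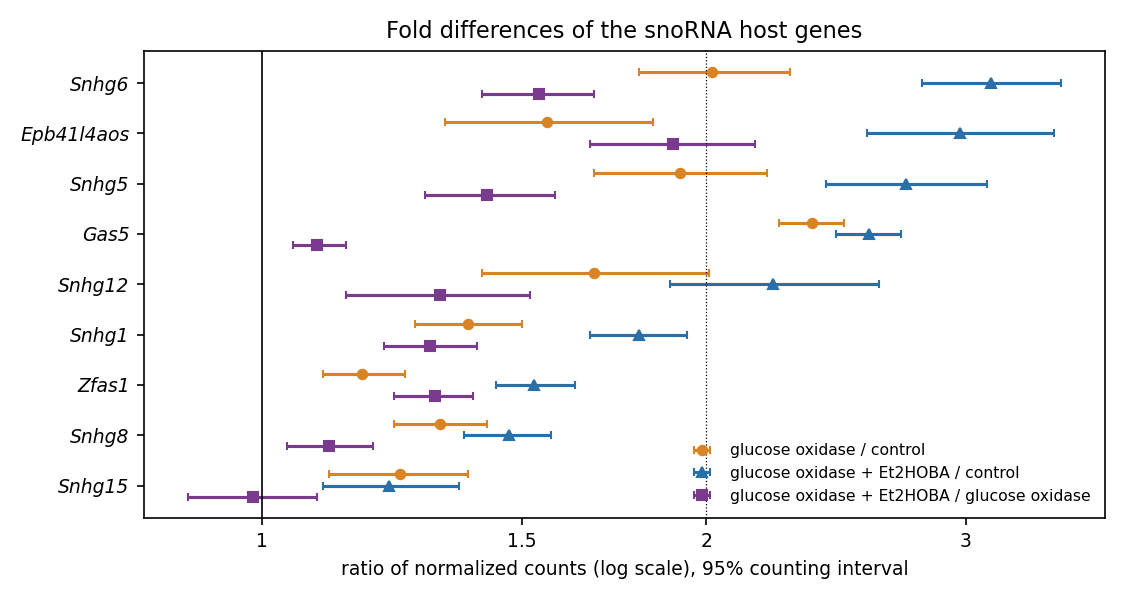
Ratio of normalized counts (x axis, log scale) for each listed host in the 3 comparisons, with exact 95% counting intervals; the solid line marks 1 and the dotted line 2. Gas5 has its largest step at glucose oxidase, and Epb41l4aos has its larger step between the treated libraries. The interval of Snhg15 between the treated libraries holds 1.

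The hosts differed in how much of the log2 rise with Et2HOBA was already present after glucose oxidase alone. For Gas5 that share was 90.6%, and for Snhg8 72.0%. It was 65.0% for Snhg12, 64.6% for Snhg5 and 61.8% for Snhg6, hosts that lie close together, and 55.3% for Snhg1. Epb41l4aos and Zfas1 had most of their difference between the treated libraries, with shares of 40.7% and 36.8%. The authors' deposited differences from control were 0.42 and then 1.35 with Et2HOBA for Epb41l4aos, and 0.21 and 0.59 for Zfas1. Snhg15 was at 106%, since its level after glucose oxidase was slightly above that with Et2HOBA. The summed normalized count of the 9 hosts was 1.64-fold that of control after glucose oxidase and 2.0-fold with Et2HOBA. Without Gas5 the same sums were 1.39-fold and 1.8-fold.

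Neither the kind of snoRNA nor the start tract divided the hosts cleanly. With Et2HOBA, hosts past the limit and hosts short of it occurred among both box C/D hosts (3 of 5 past) and box H/ACA hosts (1 of 3 past). Of the 4 listed hosts with a start tract, Gas5, Snhg5 and Snhg12 were past the limit and Snhg8 was not. Of the 3 without one, Snhg1, Zfas1 and Snhg15, 0 were past it. With so few genes these counts are given as a description.

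Per kilobase of merged exon the order of the hosts changed with treatment. In control the normalized count per kilobase was highest for Snhg8 at 1580, followed by Zfas1 at 569, Epb41l4aos at 561 and Gas5 at 547, and these last 3 lay within each other's counting intervals. Snhg15 stood at 446, Snhg6 at 374, Snhg1 at 332, Snhg5 at 190 and Snhg12 at 85.5, with the intervals of Snhg6 and Snhg1 overlapping. After glucose oxidase Gas5 stood second at 1290. With Et2HOBA the order was Snhg8 at 2320, Epb41l4aos at 1670, Gas5 at 1410, Snhg6 at 1170 and Zfas1 at 873. Snhg1, Snhg15 and Snhg5 followed at 597, 545 and 519, where each overlapped the next, and Snhg12 stayed lowest at 190. Lengths are those of GENCODE M21. The reads of Snhg5 were counted over a longer model, spanning chr9:88495268-88523562, than the M21 model at chr9:88521050-88522929 that gave its length, so its level per kilobase and its place in the order are uncertain. For Gas5, Snhg1, Snhg5, Snhg8, Snhg12 and Zfas1 the merged exons span most or all of the gene, so a level per kilobase is averaged over that whole length.

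Mature snoRNAs carry no poly(A) tail, and of those inside these hosts 2 were listed. Snord87, in an intron of Snhg6, had 6 reads in control, then 9 with glucose oxidase and 6 once Et2HOBA was added, too few to set a difference apart from 1 (1.6-fold, interval 0.51 to 5.47, after glucose oxidase). Gm23201, inside Zfas1, had 38, 46 and 24 reads. Its ratio with Et2HOBA over glucose oxidase was 0.485 (0.283 to 0.811), while that of its host Zfas1 was 1.31. Against control its ratio was 1.29 (0.824 to 2.04) after glucose oxidase and 0.628 (0.36 to 1.07) with Et2HOBA, and both intervals held 1. In 1 of the 5 annotated Zfas1 transcripts an exon lies over Gm23201. Whether its reads come from host RNA was not tested.

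A list of other noncoding snoRNA hosts, drawn up by name, was less uniform with Et2HOBA. Neither its genes nor the remaining lncRNA genes were searched for snoRNAs, so further hosts may lie outside it. Of 14 named, 9 were listed, and after glucose oxidase all 9 lay above 0, with a median log2 ratio of 0.51 and 1 past the limit, the scantly covered Mir17hg (30, 72 and 64 reads). Mir17hg is named as the host of a microRNA, and its place among snoRNA hosts was not checked. With Et2HOBA over control 0 were past the limit, the median was 0.24 and 5 of 9 lay above 0. Snhg17 had 947, 1531 and 1461 reads and Dancr 163, 223 and 233, so both stayed above control in the treated libraries. Snhg20 had 385, 516 and 460 reads. Between the treated libraries 1 of these 9 genes lay above 0, against 8 of the 9 hosts examined here and 30.2% of the 258 lncRNA genes. Counting intervals there held 1 for Dancr (0.805 to 1.17), Snhg16 (0.942 to 1.3), Snhg4 (0.696 to 1.04) and Mir17hg (0.581 to 1.17). They lay below 1 for Snhg17, Snhg20 and Snhg14. The hosts were chosen with earlier results known, so this contrast is a description only.

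**Figure D4:**
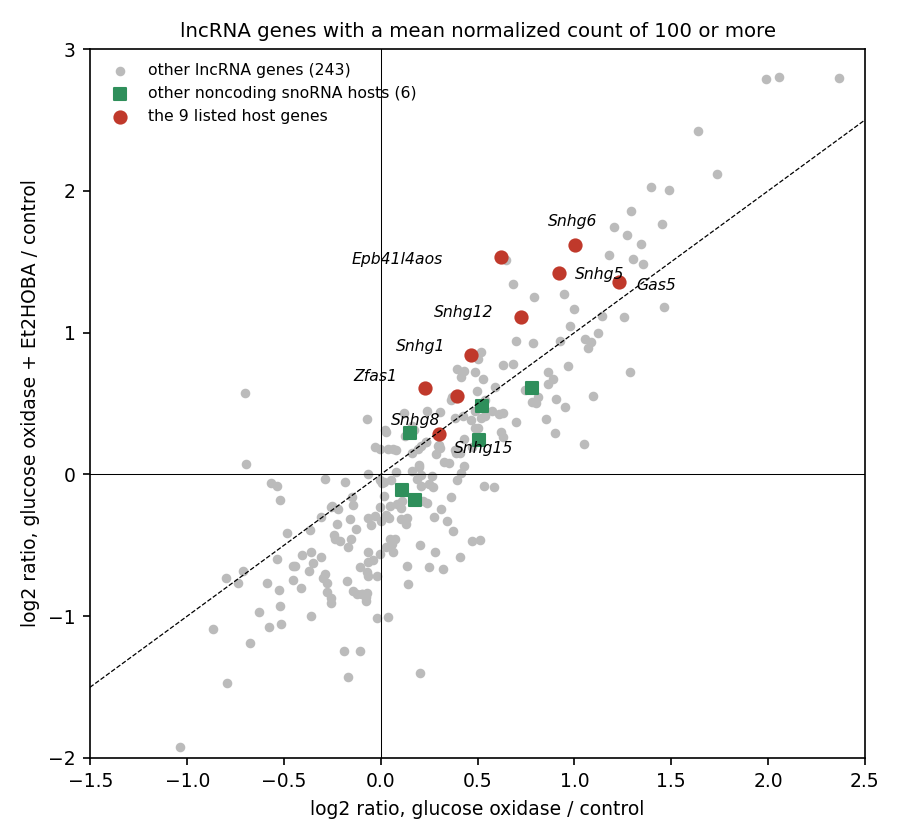
Log2 ratio to control after glucose oxidase (x axis) and with Et2HOBA as well (y axis) for lncRNA genes with a mean normalized count of at least 100: the 9 hosts in red, 6 other noncoding snoRNA hosts as green squares and 243 other genes in grey, of which 6 lie outside the frame. The grey genes were not searched for snoRNAs and may hold further hosts. The dashed line marks equal ratios, and 8 of the 9 hosts lie above it, with Snhg15 just below; Snhg15 lies just above the line when size factors are taken from protein-coding genes.

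The lncRNA genes nearest to the hosts' median pair of ratios to control were Gm11613, 2810002D19Rik, Spata5l1, Gm48226 and 1110038B12Rik, by Euclidean distance over these 2 ratios among 249 genes. They are lncRNA genes by the gene type deposited with the counts. Whether they carry snoRNAs themselves was not tested. Their distances ran from 0.19 for Gm11613 to 0.27 for 1110038B12Rik. Spata5l1 had 297, 452 and 774 reads, and 1110038B12Rik had 2038, 2730 and 3735. Of the hosts, Snhg12 lay nearest to the median pair, at 0.1, and Snhg15 farthest, at 0.89.

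Protein-coding snoRNA hosts, which carry snoRNAs in the introns of genes such as Rack1 and Eif4a2, had 0 of 18 genes past the limit in any of the 3 comparisons. Set against control, their median log2 ratios were 0.24 for glucose oxidase and 0.31 for both agents. The largest ratios with Et2HOBA were 0.81 for the prenyltransferase subunit gene Rabggtb, 0.77 for the translation initiation helicase Eif4a2 and 0.72 for the ribosomal scaffold Rack1. The lowest were -0.64 for the chaperone Hspa8 and -0.55 for Ptcd3. The proteins that package and assemble snoRNAs had 0 of 17 past the limit, with medians of 0.17 and 0.26.

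TOP mRNAs, the class of ribosomal protein and elongation factor mRNAs that begin with such a tract, lay mostly above control and short of the limit. All 79 cytosolic ribosomal protein genes were listed, with 0 past the limit. After glucose oxidase 76 of 79 lay above 0 (median 0.31, range -0.4 to 0.62), and with Et2HOBA 77 of 79 did (median 0.4, range -0.16 to 0.92). The other 15 TOP mRNAs, such as those of elongation factors, had medians of 0.32 and 0.47, with 15 of 15 above 0 in each, or 14 of 15 with Et2HOBA when scaled by total counts. Between the treated libraries 68 ribosomal protein genes lay above 0 (median 0.11), but 44 did (median 0.02) when scaled by total counts.

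Genes of the NMD pathway itself had medians near the control level, while single genes lay on either side of it. Of 20 NMD and exon junction factors 0 were past the limit after glucose oxidase (median 0.01), and with Et2HOBA 1 was past it downward (median 0.13). That gene was Upf3b, which links the exon junction complex to the decay machinery, with 1255, 1014 and 589 reads and a log2 ratio of -1.09. Short of the limit, Etf1 and Rnps1 had log2 ratios of 0.62 and 0.59 with Et2HOBA, and Upf2 one of -0.3. Of 14 mRNAs known as NMD targets, 4 were past the limit upward after glucose oxidase and 5 with Et2HOBA, with medians of 0.17 and 0.09. The 4 were Atf3, Gadd45a, Ddit3 and Atf4, all known also as genes of the integrated stress response, and Gadd45b was the additional one. Atf4 had 3288 reads in the control library against 11946 with glucose oxidase and 19243 with both. Ddit3, a transcription factor of the same response, had 472, 2411 and 4339. Srsf6, a splicing factor with a poison exon, had 9138, 7028 and 5197 reads and a log2 ratio of -0.82 with Et2HOBA. A count per gene does not tell transcripts with such an exon from those without it, and the part of NMD was not tested.

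Among 16 translation control and mTORC1 genes 2 rose past the limit in both comparisons with control, with list medians of 0.05 and 0.15. Eif4ebp1, a repressor of cap-dependent initiation, had 1744 reads in the control library, 8340 after glucose oxidase alone and 14695 after both agents, log2 ratios of 2.35 and 3.06. Ppp1r15a, which directs dephosphorylation of eIF2, had 1449, 6356 and 11899 reads, log2 ratios of 2.22 and 3.02. Both follow the order of libraries seen for 8 of the 9 hosts, with larger ratios. The list as a whole did not, since 9 of 16 genes lay above 0 after glucose oxidase and 10 with Et2HOBA. Sesn2 (0.76 and 0.89) and Larp1 (0.24 and 0.54) were above control. Ddit4 (-0.55 and -0.89) and Eif4ebp2 (-0.37 and -0.7) were below it. Of 13 listed lncRNA genes that are not snoRNA hosts, 1 was past the limit after glucose oxidase and 0 with Et2HOBA, with medians of 0.24 and 0.19. The well-known nuclear lncRNA Neat1 had a log2 ratio of 0.77 with Et2HOBA and Oip5os1 one of -0.93.

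**Figure D5:**
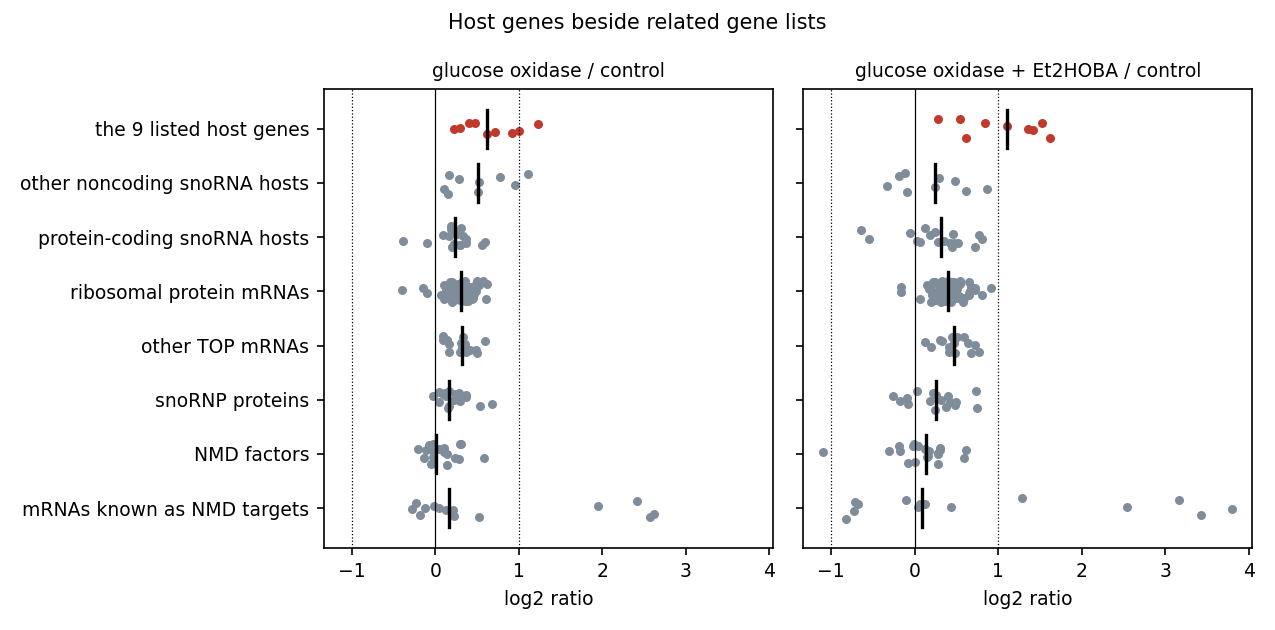
Log2 ratio to control after glucose oxidase (left) and with Et2HOBA as well (right), where each point is a gene, the black bar is the list's median and dotted lines mark the limit of 1. The hosts' median of 1.11 with Et2HOBA is the highest of the 8 lists drawn, and 5 mRNAs known as NMD targets lie past the limit there. The hosts and the lists were chosen with earlier results of these data known, so the order of medians is a description only.

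Some host sequence is shared with other genes, and the effect of how such reads were counted was not tested. Gas5 overlaps Zbtb37 over 428 bases and Zfas1 overlaps Znfx1 over 82 bases, both on the other strand, and Snhg6 overlaps Mcmdc2, which is not listed, over 127 bases. The library kit keeps the strand, but whether counting used it is not given in the sources used here, so reads of such partners cannot be told apart where they overlap. Of the 50-base stretches of each longest transcript, 15.7% for Zfas1, 13.4% for Snhg15 and 11.1% for Snhg8 also occur in other annotated genes. For Epb41l4aos the share was 0.0%.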

How the data were processed

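The members and all gene lists were chosen with earlier results of these data known. Polyadenylated RNA was sequenced from 1 library in each of 3 groups. The submitters' processing notes name STAR, featureCounts and mm10; versions, annotation and strand setting are not given in the sources used here. The authors deposited raw read counts for the control library and for glucose oxidase plus Et2HOBA, per the file headers, together with log2-scale normalized values and their log2 differences. For glucose oxidase against control the authors deposited a log2 difference per gene, in a table without a header.

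Glucose oxidase counts were recovered from those differences and the control counts: 100% of 18275 genes matched by symbol came within 0.01 of a whole read, against 3.31% with 1 read added to each control count, and 12 more genes were placed by whole reads. Each library's counts were then scaled by its median-of-ratios factor (1.032 for control, 0.965 for glucose oxidase and 1.039 for both agents), 10 was added, and log2 ratios were taken. Recovery was tested on simulated data. No count model was fitted, since 1 library per group gives no spread. Median-of-ratios scaling was replaced in turn by total counts, by factors from protein-coding genes and by edgeR 4.0.16 TMM factors; other pseudocounts, limits and the deposited scale were also tried.

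GENCODE M21 holds 17878 of the gene IDs in the same version, all 17878 at the same position, so M21 models (GRCm38) were used; Snhg5, Snhg15 and Zfas1 differ in ID version. Named genes are all members, the nearest start on the other strand within 2 kb, the 5 nearest lncRNA genes and up to 6 genes per list with the largest ratio to control in size with both agents, at a mean normalized count of at least 100; Mir17hg was named after its values were seen. Analyses used R 4.3.3 and Python 3.11.15 with numpy, pandas, scipy and matplotlib.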

Additional observations from a re-analysis of the deposited data

How the results depend on the processing

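With 1 library per group no replicate could be left out, so every call rests on single libraries. No paired analysis was possible because each group has 1 library. The count of hosts past the limit after glucose oxidase was 1 in place of 2 with a pseudocount of 50, with total-count scaling, with factors from protein-coding genes and on the authors' deposited scale, since Snhg6 stands at the limit. A limit of 0.5 gave 5 after glucose oxidase, 8 with Et2HOBA over control (in place of 5) and 3 between the treated libraries (in place of 0), and a limit of 2 gave 0 in both comparisons with control. Of the hosts, only Epb41l4aos shared no 50-base stretch with other annotated genes, and kept alone it gave counts of 0 and 1, and medians of 1.53 with Et2HOBA over control and 0.91 between the treated libraries. Hosts with at most 10% of stretches shared, a choice added after seeing the data, had a median of 1.39 with Et2HOBA over control, in place of 1.11. Between the treated libraries the hosts' median of 0.39 became 0.29 with total-count scaling and 0.24 on the scale fitted to the authors' deposited table of 7 genes. Total-count scaling moved the median of all genes to -0.06, -0.13 and -0.08 in the 3 comparisons. Of 54 values for single hosts in each comparison, 3, 7 and 8 moved beyond their counting interval, and 1 changed sign: Snhg15 between the treated libraries, from -0.02 to 0.01 with factors from protein-coding genes.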
